A study of Mus musculus with 8 samples.

Results

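The genes described here were chosen with earlier results of these data known. They are 41 genes of mitosis and cytokinesis, listed by name as well-known parts of the division machinery, with no measured value in the rule. They were measured in cardiomyocytes (CMs) on Illumina MouseRef-8 v2.0 BeadChips, on which the fluorescence of beads carrying a probe reports the level of a transcript. Of the 41 genes, 39 were matched to 58 probes among the 25697 on each array. Racgap1 and Cenpf were matched to none and are not described further except for their promoters. The arrays held total RNA of CM-enriched preparations from 3 groups. Embryonic CMs (ECM, 2 arrays) came from fetal ventricles at E15.5, on a CD1 background. Normal adult CMs (ACMs, labelled ACM, 3 arrays) came from untreated adult ventricles on a CD1 background. Hypertrophic ACMs (labelled TAC, 3 arrays) came from the ventricles of adult CD1 mice with hypertrophic hearts, 7 days after an operation. No operation is named for the normal ACMs, so operation and hypertrophy cannot be told apart. Whether replicates were taken from different animals is not stated, and the p-values below therefore cover the spread between these arrays, which may be technical. CMs dedifferentiated in vitro are not analysed here.

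Mitosis is run by the kinase Cdk1 and its cyclins, which drive chromosome condensation and spindle assembly. Kinetochores then attach chromosomes to the spindle, the spindle checkpoint holds back the anaphase-promoting complex (APC/C) until all are attached, and the central spindle and a contractile ring divide the cell. Cardiomyocytes divide in the fetal heart and largely leave the cell cycle after birth, and in rodents many of the late divisions end without cytokinesis and leave binucleated cells. Other cells of the heart, such as fibroblasts, endothelial cells and leukocytes, can divide in the adult.

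The preparations were checked first. All 7 cardiomyocyte marker genes with a probe were above background on every adult array and 6 or 7 of them on the embryonic arrays, with a summed signal of 92548 and 100865 in embryonic CMs, 118611 to 123832 in normal ACMs and 127450 to 132416 in hypertrophic ACMs. Arrays of a group correlated over all genes at 0.965 or more. Because RNA was taken from whole preparations, fewer dividing cells and less RNA per dividing cell cannot be told apart, nor can the cell type that a transcript came from.

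The mitotic genes were widely detected in embryonic CMs and sparsely in adult CMs. A gene was called above background on an array where a probe had a detection p-value, set against the negative-control beads, under 0.05. Of the 39 genes, 30 and 31 were above background on the embryonic arrays, against 8, 12 and 10 in normal ACMs and 17, 19 and 16 in hypertrophic ACMs. The counts of the groups did not overlap. Over all 16593 genes the shares of the groups did not overlap either and stood in the same order. They were close to each other by comparison, at 55.3% on both embryonic arrays, 45.5 to 47.9% on normal and 49.6 to 50.4% on hypertrophic ACM arrays.

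Counted over whole groups, 30 of the 39 genes were above background on both embryonic arrays, 6 on all 3 normal ACM arrays and 15 on all 3 hypertrophic ACM arrays. Of all genes, 51.4% met this in embryonic CMs, 40.5% in normal ACMs and 43.7% in hypertrophic ACMs. The 6 genes measured on every normal ACM array were Aurka, Cenpa, Incenp, Mad2l1, Nusap1 and Spc24, and the same 6 were measured on every hypertrophic ACM array. The 9 others measured on every hypertrophic ACM array were Anln, Birc5, Cdc20, Cdca3, Cdk1, Kif22, Plk1, Prc1 and Top2a. At a stricter detection p-value of 0.01 the counts were 28, 3 and 13 genes. No array of normal ACMs detected 25 of the genes, and no array of hypertrophic ACMs detected 18. Of the 5 cytokinesis genes with a probe, normal ACMs had 0, 2 and 1 above background and hypertrophic ACMs 3, 3 and 2. Of the 11 kinases, cyclins and regulators of mitotic entry, 1, 3 and 1 were above background in normal ACMs and 4 on each hypertrophic ACM array.

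**Figure D1:**
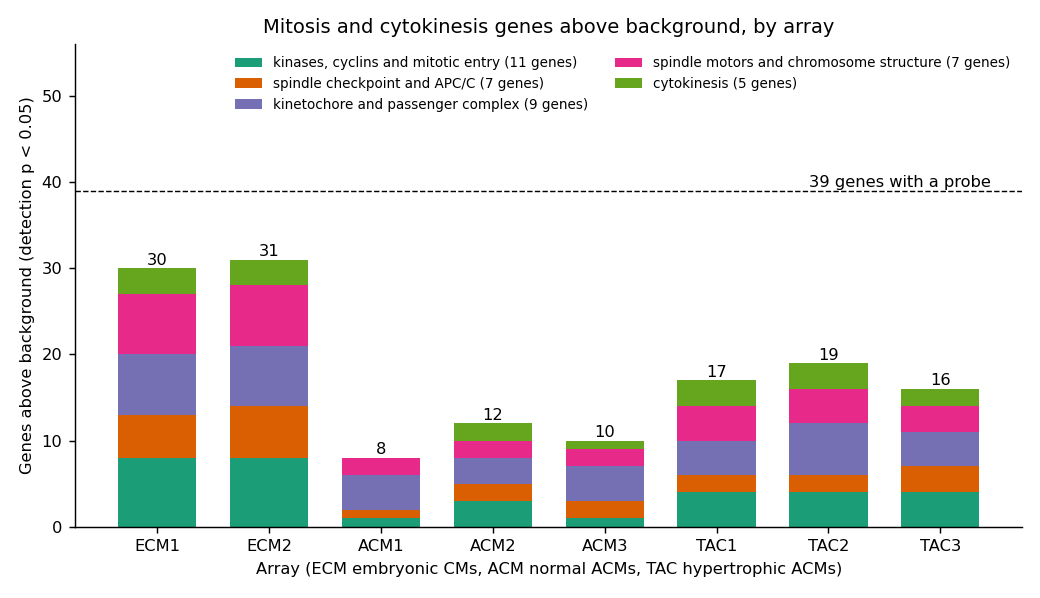
Number of mitosis and cytokinesis genes with a probe above background on each array, stacked by functional group, out of 39 genes with a probe. The 2 embryonic arrays (ECM) reach 30 and 31, the 3 normal ACM arrays (ACM) stay between 8 and 12, and the 3 hypertrophic ACM arrays (TAC) lie between 16 and 19.

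The scale of these signals bears on what can be said of the adult arrays. Apart from Cenpa, the 30 genes with a kept probe had deposited intensities of 106.6 to 5064.1 in embryonic CMs, 83.7 to 142.2 in normal ACMs and 80.0 to 211.7 in hypertrophic ACMs. The median intensity of all probes was 95.8 to 99.0 on normal and 92.3 to 99.9 on hypertrophic ACM arrays, so nearly all adult values of these genes lay close to the level of the background. Cenpa was the exception, at 2833.3 to 4780.8 on the adult arrays. On the normalized log2 scale used below, the dimmest probes above background on an adult array stood at 4.73 to 4.95, and a group below background on all of its arrays has only a bound. A bound, written as at least N-fold, uses the mean of the brighter group. It leaves out the spread between arrays and is not a confidence limit. Where only some arrays of a group detected a gene, their number is given, and the fitted difference rests in part on undetected values.

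For 9 of the 39 genes the arrays gave no level, and they enter only the counts made without a filter. Ccnb2, Cks1b, Cks2, Bub1, Ttk, Cenpe, Nuf2, Kif20a and Ect2 had no probe above background on 2 or more arrays, and their intensities ran from 78.1 to 104.7 over all 8 arrays, embryonic CMs included. For 8 of these 9 genes no array passed, and Ttk passed on 1 embryonic array. That left 30 genes for the comparisons, 8 of the kinases, cyclins and regulators of mitotic entry, 5 of the spindle checkpoint and APC/C, 7 of the kinetochore and passenger complex, 7 spindle motors and chromosome proteins, and 3 of cytokinesis.

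The promoters of these genes shared sequence elements that the choice of genes did not use. Many mitotic genes carry a cell cycle genes homology region (CHR), through which the DREAM and MuvB complexes act, and a CCAAT box, to which NF-Y binds. RefSeq windows of 300 bases on build GRCm38.p6, from 250 bases before to 50 after a transcript start, were found for 35 of the 41 genes (37 windows, since Prc1 and Ect2 had several). The CHR was searched as TTTGAA or TTCGAA and the CCAAT box as CCAAT, both on either strand, and neither contains the other. A CHR was found in 30 of the 37 windows (81.1%, exact 95% interval 64.8 to 92.0%), against 19.2% of all 32851 windows of that length. A CCAAT box was found in 29 of 37 (78.4%), against 37.4%, and both motifs stood together in 27 windows (73.0%), against 7.52%. The E2F motif, searched as TTTCGCG or TTTGGCG, was found in 3 of the 37 windows (8.11%), against 2.37%. The exact 95% interval of that share, 1.7 to 21.9%, included the share of all windows. A CHR began within 50 bases of the start in 78.4% of the windows of these genes and in 5.31% of all windows. A match is a description of letters and not a site or a cause.

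The windows around the start of the 5 genes that were higher in hypertrophic ACMs, and of Aurka, which was measured there and did not pass the test, are shown to compare the layout. Each runs 5′ to 3′ on the strand of the gene, from 120 bases before the start to 50 after it, and capitals mark the CHR and CCAAT matches on either strand.
Prc1, chr7:80294331-80294500, plus strand: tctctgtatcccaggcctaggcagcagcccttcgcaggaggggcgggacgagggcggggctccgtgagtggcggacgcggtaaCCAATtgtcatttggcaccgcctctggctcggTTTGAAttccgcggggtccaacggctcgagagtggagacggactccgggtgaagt
Cdk1, chr10:69352863-69353032, minus strand: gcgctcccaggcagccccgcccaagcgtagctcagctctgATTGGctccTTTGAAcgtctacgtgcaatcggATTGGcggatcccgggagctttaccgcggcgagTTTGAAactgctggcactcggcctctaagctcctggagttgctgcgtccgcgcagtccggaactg
Kif22, chr7:127042371-127042540, minus strand: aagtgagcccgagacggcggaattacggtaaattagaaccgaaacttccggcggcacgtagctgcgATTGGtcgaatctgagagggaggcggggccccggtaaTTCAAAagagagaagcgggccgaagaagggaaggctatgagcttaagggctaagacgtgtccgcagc
Cdca3, chr6:124830056-124830225, plus strand: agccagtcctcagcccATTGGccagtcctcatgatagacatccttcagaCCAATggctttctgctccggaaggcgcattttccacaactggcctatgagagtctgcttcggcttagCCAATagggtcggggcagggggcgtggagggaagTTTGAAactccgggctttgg
Birc5, chr11:117849117-117849286, plus strand: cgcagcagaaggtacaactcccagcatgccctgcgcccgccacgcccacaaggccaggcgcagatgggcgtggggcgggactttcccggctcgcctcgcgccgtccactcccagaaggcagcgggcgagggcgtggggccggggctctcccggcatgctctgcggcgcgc
Aurka, chr2:172370521-172370690, minus strand: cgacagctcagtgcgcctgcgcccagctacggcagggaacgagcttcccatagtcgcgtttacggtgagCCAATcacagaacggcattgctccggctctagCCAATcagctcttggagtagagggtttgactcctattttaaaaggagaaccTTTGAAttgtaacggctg
In Prc1 the CHR began 5 bases before the start and the CCAAT box 37 bases before it. In Cdk1 a CHR 15 bases and another 71 bases before the start alternated with CCAAT boxes 48 and 80 bases before it. Kif22 had both motifs read from the other strand, 17 and 54 bases before the start. In Cdca3 and Aurka the CHR lay past the start, at base 31 and base 33 of the transcript. The Birc5 stretch held neither motif, which says only that these letters are not in this window. Of the 5 genes higher in hypertrophic ACMs, 4 thus held a CHR, as did Aurka.

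**Figure D2:**
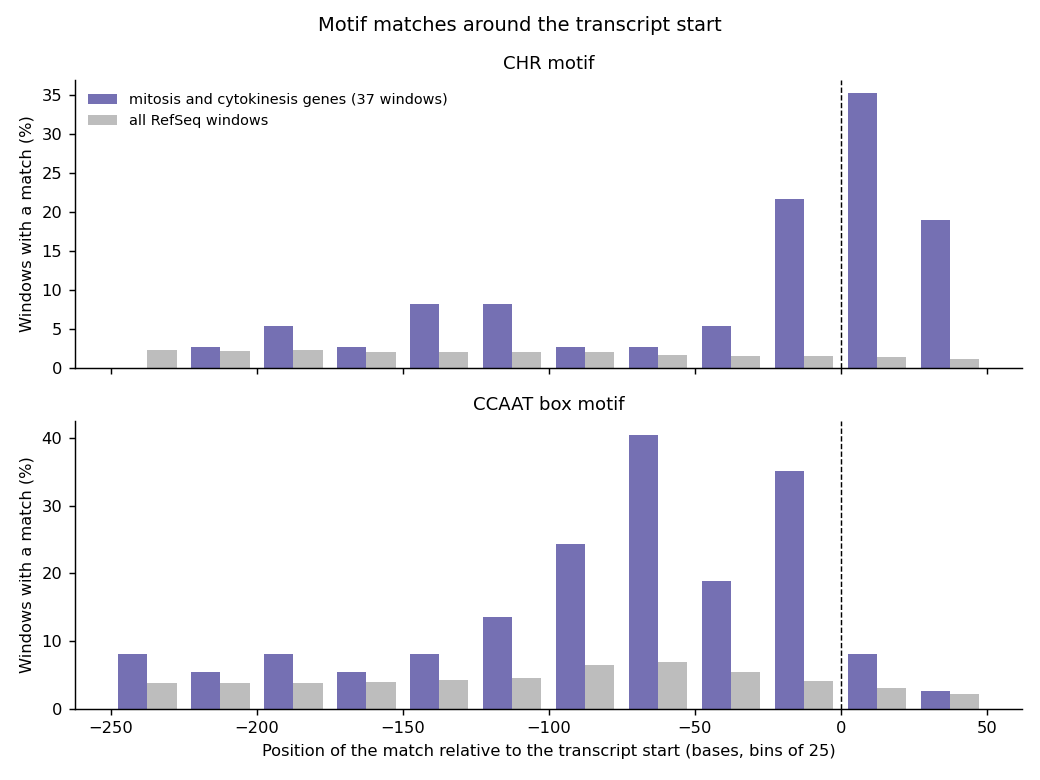
Share of promoter windows (%, vertical axis) with a CHR (upper panel) or CCAAT match (lower panel) on either strand in bins of 25 bases, by position relative to the transcript start (horizontal axis, dashed line at the start). Purple bars are the 37 windows of mitosis and cytokinesis genes and grey bars all 32851 RefSeq windows. CHR matches of these genes gather from 25 bases before to 50 after the start and CCAAT matches mostly in the 100 bases before it, where they reach 35.1% and 40.5% of windows in a bin; grey bars stay at 6.99% or less.

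Embryonic CMs were compared with normal ACMs to ask which of these genes changed between the fetal and the adult heart. In 1 limma model of all 8 arrays, with p-values adjusted by the Benjamini-Hochberg method over 9803 genes and called at an adjusted p under 0.05, 28 of the 30 genes were higher in embryonic CMs, none was lower, and Ube2c and Spc24 did not pass. Of all genes, 26.2% were higher and 22.7% lower in this comparison. The median difference was 3.64 on the log2 scale, against 0.01 for all genes. Genes entered the comparison if they were above background on at least 2 arrays, so a gene seen only on the 2 embryonic arrays entered through the group where it was high. With no such filter, 29 of all 39 genes were higher and none lower, against 15.1% of 16593 genes, and the median difference was 2.82. Normal ACMs were below background on every array for 15 of the 28 genes. For 14 of them the fold is a bound, from at least 1.18-fold to at least 76.4-fold, and for Ccna2 no fold is given because the bound came to less than 1. With the 14 genes at their bound the median difference was 3.45. Arrays scaled to their medians in place of quantile normalization moved the median of all genes to 0.52 and the share of higher genes among all calls from 53.6% to 80.3%.

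Among the kinases and cyclins, all 8 measured genes were higher in embryonic CMs. Cdk1, the kinase that starts mitosis, had a log2 signal of 11.33 and 10.97 in embryonic CMs, 4.41, 4.74 and 4.31 in normal ACMs and 5.32, 6.92 and 6.39 in hypertrophic ACMs. The 3 groups did not overlap, and normal ACMs were below background on every array. The embryonic level was at least 76.4-fold that of normal ACMs (adjusted p = 2.39e-06, limma). This rests on 1 Cdk1 probe. The other Cdk1 probes were not kept, with intensities of 103.0 and 93.7, and of 95.5 and 108.1, on the embryonic arrays, where only the last was above background. Cdca3, a protein that promotes entry into mitosis, stood at 10.06 and 10.10 in embryonic CMs and at 4.38, 5.06 and 4.79 in normal ACMs, of which 1 array detected it, with a fitted difference of 5.34 (SE 0.24, adjusted p = 5.56e-07, limma). Plk1, a kinase of mitotic entry and spindle assembly, differed by a fitted 4.49 (SE 0.29), with 1 normal ACM array above background.

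Aurka, the Aurora kinase of centrosomes and spindle poles, stood at 9.77 and 9.55 in embryonic CMs, 5.38, 5.19 and 5.31 in normal ACMs and 5.34, 5.68 and 4.80 in hypertrophic ACMs. It was above background on all arrays, and only the embryonic arrays stood apart, by 4.37 (SE 0.25) from normal ACMs. The phosphatases Cdc25b and Cdc25c, which activate Cdk1, were dimmer. Cdc25c stood at 5.98 and 6.29 in embryonic CMs and between 4.25 and 4.55 on the adult arrays, at least 2.37-fold over normal ACMs. Cdc25b stood at 5.07 and 5.20 against 4.48, 4.30 and 4.40 in normal ACMs and 4.19, 4.35 and 4.58 in hypertrophic ACMs, at least 1.18-fold over normal ACMs. Both were below background on every adult array. With the background left in the values, the Cdc25b difference fell short of the threshold (adjusted p = 0.0693). Cyclin F (Ccnf), at 5.99 and 5.56 in embryonic CMs, was at least 1.84-fold higher than in normal ACMs. Cyclin A2 (Ccna2), at 4.96 and 4.68 in embryonic CMs and 4.21 to 4.52 in normal ACMs, passed with an adjusted p of 0.0419, and no adult array detected either cyclin. The Ccna2 call was not kept under most alternatives. Among these were the background left in the values, an offset of 50, the authors' normalized values and only the 2 groups in the fit. The Cdk-binding subunits Cks1b and Cks2 had intensities of 90.8 and 89.8, and of 99.8 and 95.1, on the embryonic arrays, none of them above background.

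In the spindle checkpoint and APC/C group, 4 of 5 measured genes were higher in embryonic CMs. Cdc20, which activates the APC/C once chromosomes are attached, stood at 10.47 and 10.73 in embryonic CMs, 4.28, 5.31 and 4.89 in normal ACMs and 5.31, 5.84 and 5.74 in hypertrophic ACMs. The embryonic arrays were higher than normal ACMs, of which 2 detected it, by a fitted 5.77 (SE 0.30, adjusted p = 1.06e-06, limma). The other kept Cdc20 probes were higher by 5.31, 2.21 and 4.38, and each passed in a fit over all probes. Bub1b, a checkpoint protein that restrains Cdc20, stood at 7.42 and 7.63 in embryonic CMs against 4.42, 4.29 and 4.30 in normal ACMs and 4.27, 4.37 and 4.82 in hypertrophic ACMs. Normal ACMs were below background for Bub1b, and the embryonic level was at least 6.20-fold higher. Mad2l1, the checkpoint protein that binds Cdc20, was measured on every array, at 9.29 and 8.41 in embryonic CMs and 5.69, 5.36 and 5.50 in normal ACMs, a difference of 3.33 (SE 0.31). Pttg1 (securin), which holds separase inactive until anaphase, was at least 1.48-fold higher. Ube2c, the ubiquitin-conjugating enzyme of the APC/C, stood at 4.65 and 4.64 in embryonic CMs and 4.20, 4.20 and 4.36 in normal ACMs, which did not detect it, and did not pass (adjusted p = 0.0613).

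At the kinetochore, 6 of 7 measured genes were higher in embryonic CMs. Birc5 (survivin), Cdca8 (borealin) and Incenp form the chromosomal passenger complex with Aurora B. Birc5 stood at 10.61 and 10.77 in embryonic CMs and 4.98, 4.78 and 4.61 in normal ACMs, of which 1 array detected it, with a fitted difference of 5.90 (SE 0.20, adjusted p = 1.69e-07, limma). Cdca8 stood at 8.85 and 8.54 against 4.35, 4.27 and 4.62 in normal ACMs and 4.52, 4.97 and 4.34 in hypertrophic ACMs, at least 14.0-fold higher in embryonic CMs than in normal ACMs, where no array detected it. Incenp, the scaffold of the complex, was above background on every array, at 9.14 and 8.52 in embryonic CMs and 4.98, 5.50 and 5.32 in normal ACMs, a difference of 3.57 (SE 0.24). Incenp was thus the only measured subunit of the complex with a level on every normal ACM array.

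Cenpa, the histone H3 variant that marks centromeres, was bright on all arrays. Its log2 signal was 13.44 and 13.16 in embryonic CMs, 12.09, 11.91 and 11.87 in normal ACMs and 12.58, 12.18 and 11.85 in hypertrophic ACMs. The embryonic arrays were above all adult arrays, by 1.34 (SE 0.23, adjusted p = 0.00107). The Ndc80 complex, which binds the microtubule, was split. Ndc80 (at least 4.74-fold) and Spc25 (at least 9.35-fold) were higher in embryonic CMs, Nuf2 was below background everywhere, and Spc24 differed by 0.07 (SE 0.33, adjusted p = 0.874) on the probe that stood for the gene. That probe read 6.69 and 5.74 in embryonic CMs, 6.22, 6.30 and 5.92 in normal ACMs and 5.40, 5.49 and 6.24 in hypertrophic ACMs, so the groups overlapped. The 2 Spc24 probes disagreed, since the other was higher in embryonic CMs than in normal ACMs by 1.96 (adjusted p = 0.00237 in a fit over all probes), and with the mean of both the gene passed as well (1.02, adjusted p = 0.0127).

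All 7 spindle motors and chromosome proteins were higher in embryonic CMs. Kif22, a kinesin that binds chromosomes, stood at 9.23 and 9.67 in embryonic CMs and 4.81, 4.72 and 4.69 in normal ACMs, where no array detected it, at least 23.5-fold higher. Nusap1, which bundles spindle microtubules near chromosomes, stood at 9.60 and 9.84 in embryonic CMs, 5.25, 5.20 and 5.60 in normal ACMs and 5.33, 5.75 and 5.39 in hypertrophic ACMs, a difference of 4.37 (SE 0.21) between embryonic CMs and normal ACMs. The Nusap1 probes disagreed. The other kept one, below background on every adult array, differed by a fitted 0.42 and did not pass (adjusted p = 0.104 in a fit over all probes). A further Nusap1 probe was below background on every array. Top2a, the topoisomerase that untangles sister chromatids, was at least 35.8-fold higher. The others were Kif2c, which depolymerises microtubules at centromeres (at least 12.7-fold), the chromosome-bound Kif4 (fitted difference 3.02, SE 0.19), Kif11, which pushes the spindle poles apart (fitted difference 2.74, SE 0.27), and the spindle assembly factor Tpx2 (at least 2.41-fold). For Kif4 and Kif11, 1 normal ACM array was above background.

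The 3 measured cytokinesis genes were all higher in embryonic CMs, with a median difference of 5.63. Prc1, the bundler of antiparallel microtubules in the central spindle, stood at 11.65 and 11.89 in embryonic CMs and 4.36, 5.20 and 4.98 in normal ACMs, of which 2 arrays detected it (fitted log2 difference 6.92, SE 0.31, adjusted p = 5.34e-07, limma). Kif23, the motor of centralspindlin and partner of Racgap1, stood at 9.17 and 9.03 against 4.43, 4.49 and 4.39 in normal ACMs, at least 18.5-fold higher. Anln (anillin), the scaffold of the contractile ring, stood at 9.84 and 10.60 against 4.41, 5.02 and 4.35 in normal ACMs, of which 1 array detected it, with a fitted difference of 5.63 (SE 0.34). The other kept Anln probe was below background on every adult array. It was higher in embryonic CMs by a fitted 0.66 (adjusted p = 0.0117 over all probes).

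**Figure D3:**
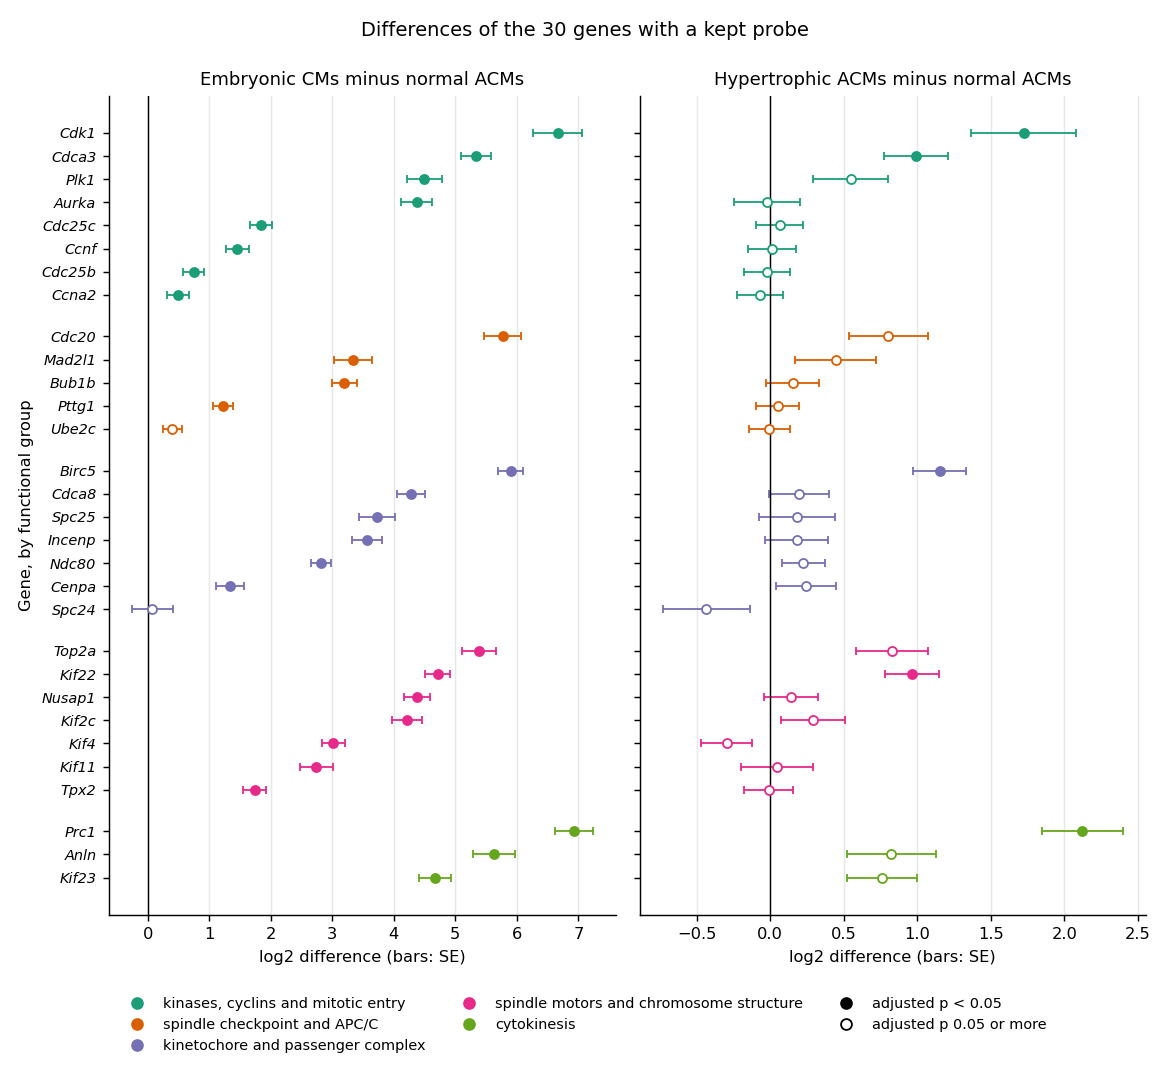
Log2 differences (horizontal axis, with SE) of the 30 genes with a kept probe, for embryonic CMs minus normal ACMs (left) and hypertrophic ACMs minus normal ACMs (right), by functional group; the panels have different scales. Filled points have an adjusted p under 0.05. Fitted values are drawn also for genes below background in normal ACMs. On the left 28 of 30 are filled, up to 6.92 for Prc1; on the right 5 are filled, from 0.96 for Kif22 to 2.12 for Prc1.

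Hypertrophic ACMs were compared with normal ACMs to ask whether these genes were higher in the adult heart after the operation. Prc1, Cdk1, Birc5, Cdca3 and Kif22 were higher and none of the 30 genes was lower (limma, adjusted p under 0.05). Of all 9803 genes, 3.84% were higher and 1.83% lower. The median difference of the 30 genes was 0.19 on the log2 scale, against -0.02 for all genes. On every hypertrophic array above every normal ACM array stood 10 of the 30 genes, against 12.3% of all genes. With no filter on background, 3 of the 39 genes were higher (Prc1, Birc5 and Kif22) and none lower, against 1.77% of all genes, and 10 of the 39 stood above on every array, against 9.05%. With arrays scaled to their medians, 4 of the 30 genes passed, and the share of higher genes among all calls moved from 67.7% to 81.2%.

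Prc1 had a log2 signal of 6.52, 7.40 and 6.98 in hypertrophic ACMs against 4.36, 5.20 and 4.98 in normal ACMs, a fitted difference of 2.12 (SE 0.28, adjusted p = 0.00348, limma). The groups did not overlap, and Prc1 was above background on 2 of the normal and all hypertrophic ACM arrays. Birc5 stood at 5.65, 6.12 and 6.06 in hypertrophic and 4.98, 4.78 and 4.61 in normal ACMs, of which 1 array detected it, with a fitted difference of 1.15 (SE 0.18, adjusted p = 0.00867). These were the only genes of the 30 that kept the call under all 21 alternatives tried. The 3 Birc5 probes differed by 1.15, 1.11 and 0.89, of which the last did not pass (adjusted p = 0.109 over all probes).

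Cdk1 stood at 5.32, 6.92 and 6.39 in hypertrophic ACMs and below background in normal ACMs, at least 2.49-fold higher (fitted log2 difference 1.72, SE 0.36, adjusted p = 0.0271). Its hypertrophic arrays spread widely but lay above all normal ACM arrays. The call rests on 1 probe, since the other Cdk1 probes were below background on every adult array and were not kept. Kif22 stood at 5.43, 5.91 and 5.76 in hypertrophic ACMs, also against a group wholly below background, at least 1.75-fold higher (fitted difference 0.96, SE 0.19, adjusted p = 0.0204). Cdca3 stood at 5.58, 6.06 and 5.56 against 4.38, 5.06 and 4.79, with a fitted difference of 0.99 (SE 0.22, adjusted p = 0.0331) and 1 normal ACM array above background. The groups did not overlap for either gene. These calls were less stable, kept by 9 (Cdk1), 15 (Kif22) and 8 (Cdca3) of 21 alternatives. The other Cdca3 probe, above background on 1 hypertrophic array, differed by 0.27 (adjusted p = 0.553 over all probes).

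On the probe that stood for the gene, a further 5 genes were above normal ACMs on every hypertrophic array without passing. They were Top2a (bound of 1.51-fold, adjusted p = 0.0915, limma), Kif23 (bound of 1.24-fold, adjusted p = 0.104), Cdc20 (0.80, adjusted p = 0.123), Anln (0.82, adjusted p = 0.16) and Ndc80, which no adult array detected (adjusted p = 0.436). The bounds of Top2a and Kif23 leave out the spread between arrays and establish no minimum. All 5 were named after their values were seen. The other kept Cdc20 probes differed by 0.54, -0.04 and 0.59 (adjusted p = 0.314, 0.944 and 0.42 over all probes). On each of them the groups overlapped. Kif23 stood at 5.20, 5.70 and 4.69 in hypertrophic ACMs, of which 2 arrays detected it, and Anln at 5.05, 5.94 and 5.25. On the probes that stood for them, all 3 measured cytokinesis genes were therefore above normal ACMs on every array, while only Prc1 passed. The other kept Anln probe was below background on every adult array. Its groups overlapped, with a difference of -0.06 (adjusted p = 0.878 over all probes). The other 20 genes differed by -0.44 to 0.55 with adjusted p from 0.267 to 0.988.

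The 6 genes that normal ACMs expressed measurably on every array did not pass, and for all 6 the groups overlapped. Aurka differed by -0.02 (95% interval -0.52 to 0.48), Nusap1 by 0.14 (-0.28 to 0.56) and Incenp by 0.18 (-0.31 to 0.67). Mad2l1, at 5.84, 6.42 and 5.62 in hypertrophic ACMs, differed by 0.44 (-0.17 to 1.06). Cenpa differed by 0.24 (-0.22 to 0.70) and Spc24 by -0.44 (-1.11 to 0.23). Incenp stood at 5.24, 5.50 and 5.60 in hypertrophic ACMs, so 2 subunits of the passenger complex, Birc5 and Incenp, had differences of 1.15 and 0.18. The interval stayed within 1 log2 unit of 0 for 4 of the 6 genes. Whether genes differed from each other was not tested.

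**Figure D4:**
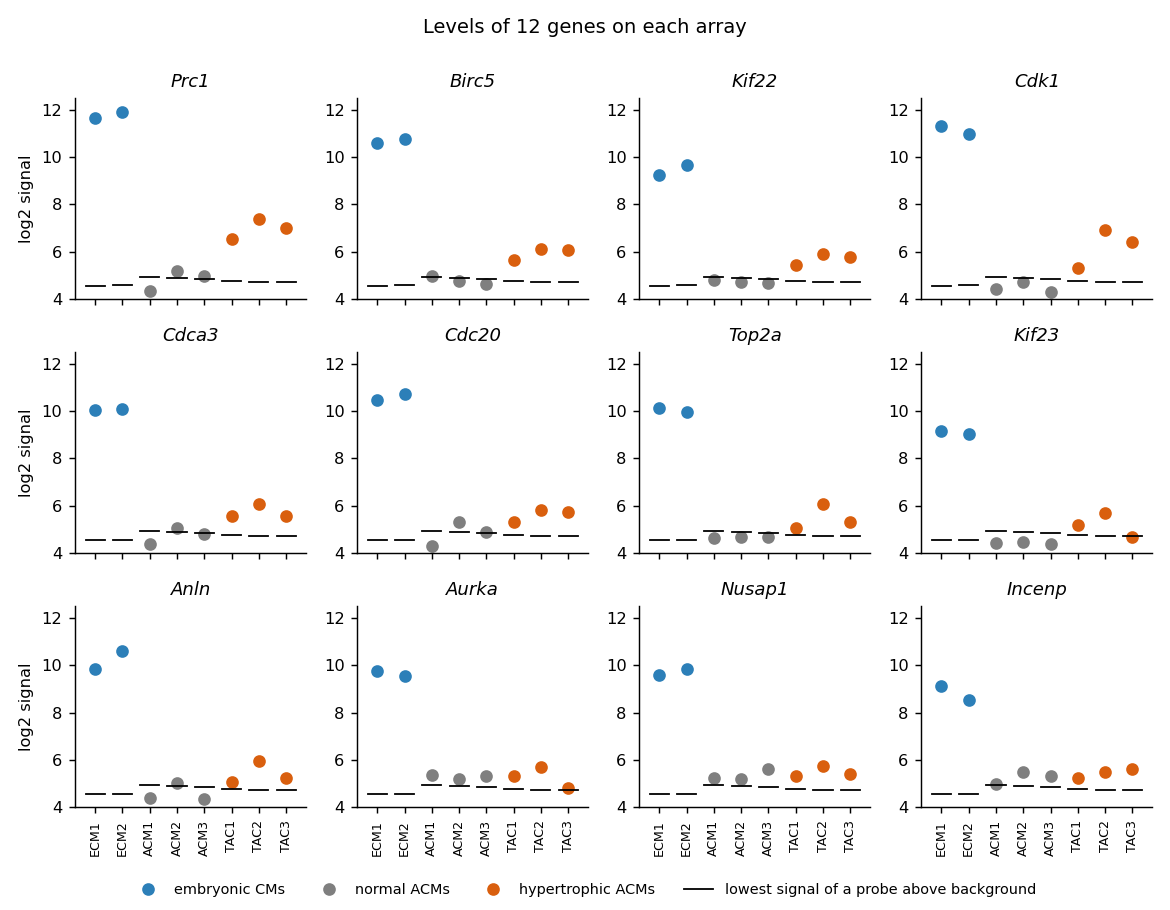
Normalized log2 signal (vertical axis) of 12 genes on each array (horizontal axis), 1 point per array in blue for embryonic CMs, grey for normal and orange for hypertrophic ACMs; black dashes give the lowest signal of a probe above background on that array. The first 9 genes have all 3 orange points above all grey points, and Aurka, Nusap1 and Incenp have overlapping orange and grey points.

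One array weighed on the comparison. Hypertrophic ACM array 2 was the highest of its group for 19 of the 30 genes and for all 5 that passed, against 34.3% of all genes. Without it only Prc1 (1.93) and Birc5 (1.08) passed, and the count was also 2 without normal ACM array 3. It was 3 (Prc1, Birc5 and Kif22) without normal ACM array 1 or either embryonic array, 3 (Prc1, Birc5 and Kif23) without hypertrophic ACM array 3, and 6, with Cdc20 added, without normal ACM array 2. Without hypertrophic ACM array 1 it was 5, with Top2a in place of Cdca3. None of the 5 genes changed direction in these fits.

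Markers of other cells moved between the same groups. Of 7 measured fibroblast markers, 6 were higher in hypertrophic ACMs, such as Col1a1 (4.92, SE 0.51) and Col3a1 (3.63, SE 0.37). The summed signal of the 9 fibroblast markers with a probe ran from 1472 to 3064 in normal and from 5680 to 9187 in hypertrophic ACMs, without overlap, and hypertrophic array 2 was the highest here too. That array was also the highest of its group for the cardiomyocyte, endothelial, leukocyte, erythroid and epicardial sums, but not for smooth muscle and pericyte. Of 8 endothelial markers 1 was higher (Plvap, 1.56, SE 0.18), with sums of 1038 to 3177 in normal and 2231 to 3753 in hypertrophic ACMs. None of 4 measured leukocyte markers passed, and the sums, from 376 to 2772 and from 1573 to 2174, overlapped. Of these markers Lyz2, Laptm5 and Cd74 were above background on every adult array, and Lyz2 differed by 1.40 (SE 0.51, adjusted p = 0.158), Laptm5 by 1.58 (SE 0.53, adjusted p = 0.13), Cd52 by 0.48 and Cd74 by 0.02. Ptprc, Itgam and Fcer1g of the same list were below background on all adult arrays, as were Ddr2 of the fibroblast list, Kdr of the endothelial list and Cnn1 of the smooth muscle list. Of 6 measured smooth muscle and pericyte markers 1 was higher (Cspg4) and 1 lower (Acta2), with sums of 8238 to 13131 in normal and 4337 to 6400 in hypertrophic ACMs. Acta2, with a mean log2 signal of 13.32 in normal and 12.20 in hypertrophic ACMs, made up most of these sums. The means of the other measured markers, Cspg4, Myh11, Rgs5, Pdgfrb and Tagln, were higher in hypertrophic ACMs, and of these only Cspg4 passed. None of 7 cardiomyocyte markers passed. The erythroid sum was 166 to 3432 in hypertrophic and 181 to 1321 in normal ACMs, against 33549 and 33594 in embryonic CMs, where fibroblast sums of 4765 and 5404 and endothelial sums of 7919 and 6168 also exceeded those of normal ACMs. The part of these cells in the mitotic signals was not tested.

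**Figure D5:**
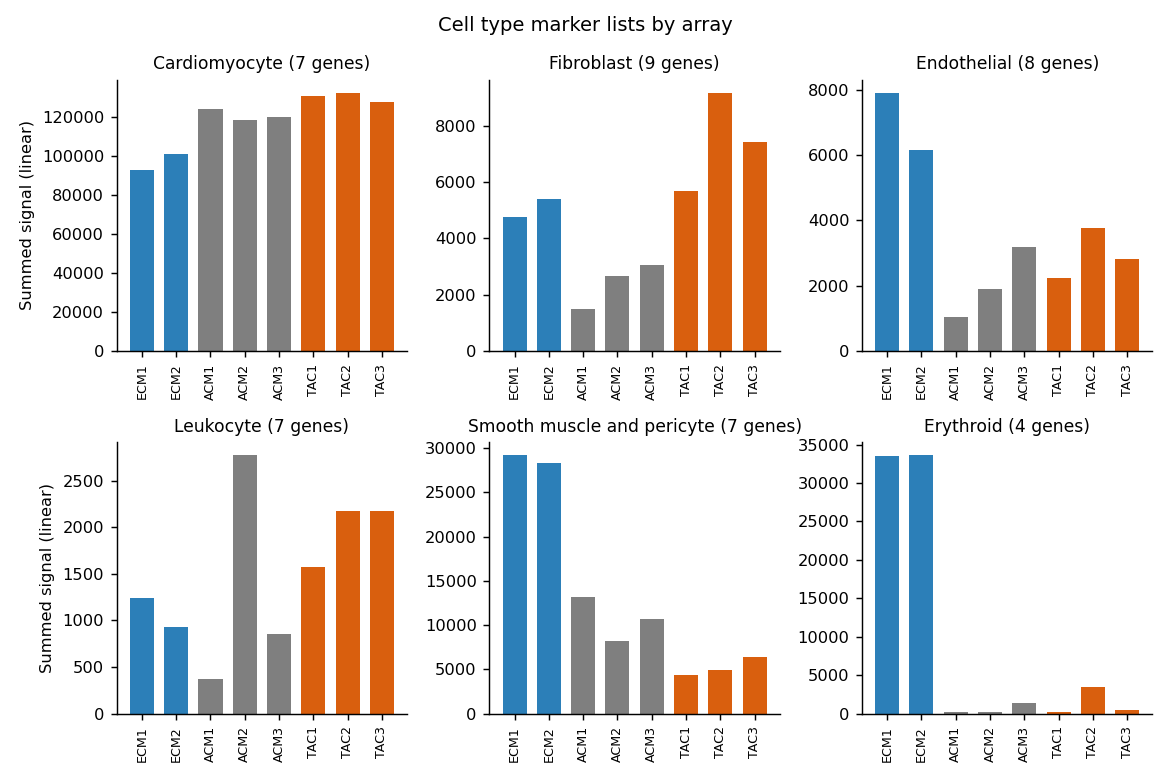
Summed normalized signal on a linear scale (vertical axis) of 6 marker lists on each array (horizontal axis), in blue for embryonic CMs, grey for normal and orange for hypertrophic ACMs; each panel has its own scale from 0. Fibroblast sums of the hypertrophic arrays, 5680 to 9187, lie above those of normal ACMs, 1472 to 3064, while leukocyte and endothelial sums overlap.

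The levels of hypertrophic ACMs remained far under those of embryonic CMs. In that comparison, which shares its arrays with those above, 28 of the 30 genes were higher in embryonic CMs, none was lower, and the exceptions were again Ube2c and Spc24. Of all genes 23.8% were higher and 19.7% lower, and with no filter 29 of the 39 genes were higher, against 13.6%. The 5 genes that were higher in hypertrophic ACMs were still 13.4-fold (Kif22) to 30.7-fold (Cdk1) higher in embryonic CMs. With median scaling the share of higher genes among all calls moved from 54.7% to 80.9%, and the median of all genes to 0.48. Prc1 was 27.9-fold higher there (log2 difference 4.80, SE 0.31). Cdc20 differed by 4.97 (SE 0.30) and Cenpa, bright on every array, by 1.10 (SE 0.23).

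Other genes of mitosis were followed in 4 lists outside the 41, read beside the 26.2% of all genes that were higher and the 22.7% that were lower in embryonic CMs than in normal ACMs. Of 119 listed genes 78 were measured, of which 56 were higher and 3 lower in embryonic CMs than in normal ACMs, with a median difference of 1.21. Among 15 measured regulators of mitotic transcription, 10 were higher and 2 lower. E2f1, which drives genes of S phase, was at least 28.2-fold and E2f2 at least 5.76-fold higher, and Mybl2 (3.46, SE 0.25) and Foxm1 (2.44, SE 0.28), which act with MuvB on CHR promoters, were higher as well, each detected on 1 normal ACM array. The 2 lower regulators, named after their values were seen, were E2f6 (-0.76, SE 0.19) and Tfdp2 (-1.79, SE 0.34).

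Of 39 further mitosis genes, 34 were higher and 1, the checkpoint gene Zw10 (-0.78, SE 0.21, named after its value was seen), was lower. Gtse1, Espl1 (separase), Sgo1 (shugoshin, which protects cohesin at centromeres) and Kif15 had the smallest p-values, at least 12.8-fold, 5.95-fold, 4.13-fold and 5.63-fold higher. Of 12 condensin and cohesin genes 8 were higher, led by the condensin subunits Ncaph (4.13, SE 0.27), Ncapg2 (at least 1.40-fold) and Ncapd2 (1.96, SE 0.33) and the cohesin subunit Smc1a (1.74, SE 0.25). Of 12 core subunits of the APC/C and its activators 4 were higher (Fzr1, Cdc16, Cdc23 and Anapc5, by 0.67 to 0.80), a share near that of all genes. The median difference was 0.18 for this list and 1.82 for the further mitosis genes, against 0.01 for all genes.

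In hypertrophic ACMs 2 of the 78 genes were higher and 1 was lower, against 3.84% higher and 1.83% lower of all genes, and both shares of the 78 were below those of all genes. Gtse1 (fitted difference 0.91, SE 0.15, adjusted p = 0.0111) stood at 5.22, 5.28 and 5.12 against 4.22, 4.37 and 4.29 in normal ACMs. E2f1 (fitted difference 0.82, SE 0.17, adjusted p = 0.0249) stood at 5.26, 5.60 and 5.11 against 4.51, 4.42 and 4.57. Both were detected on all hypertrophic and no normal ACM arrays, which bounds them at 1.24-fold and 1.35-fold or more. The lower gene was the kinetochore gene Cenpp (-0.77, SE 0.15, adjusted p = 0.0222), at 5.67, 5.70 and 5.53 against 6.53, 6.44 and 6.24. Mybl2 and Foxm1 differed by 0.04 and -0.12 and did not pass, and none of the 12 condensin and cohesin or 12 APC/C genes passed.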

How the data were processed

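The authors deposited probe intensity values (linear bead means), extracted with GenomeStudio (version 2011 in the submitters' processing notes, another version in the series text), not normalized, with a detection p-value beside each. A further deposited table, with intensities after background subtraction and quantile normalization by the authors, served as an alternative. Probes were named from the platform annotation, in which 23978 of 25697 probes had 1 gene symbol and 1719 had none and were left out.

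The package limma 3.58.1 was run in R 4.3.3. In neqc, the background was inferred through the detection p-values, an offset of 16 was added, and arrays were quantile-normalized. Probes were kept if 2 or more of the 8 arrays had a detection p under 0.05, and the brightest kept probe stood for a gene, which left 9803 genes. For 11 of the genes described several probes existed. The 3 groups entered 1 model without covariates (lmFit, contrasts.fit, eBayes), and two-sided p-values were adjusted after Benjamini and Hochberg, over all genes, in each comparison. Where no array of a group detected a gene, its fold was given as a bound, the mean of the bright group over the higher of each dim array's lowest detected signal and the gene's own. The spread of the bright group does not enter this bound. The steps were tested on simulated arrays. Promoters came from RefSeq windows and were searched with Python 3.11.15, and figures were drawn with matplotlib 3.10.9. Intensities carry no counting depth, so the number of arrays limits the precision. Which chip an array was on is not known here, and no chip effect was modelled.

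The members and lists were chosen with earlier results of these data known. Full values were given for genes detected on all normal ACM arrays, genes past the threshold in hypertrophic against normal ACMs, the 2 with the smallest p in each functional group of the embryonic comparison, the Cks and Cdc25 pairs and Anln, and for up to 4 genes per further list. Alternatives were other background corrections, scalings, filters, probe summaries and variance models, fits without the third group, a block for the replicate number, a stricter threshold and leaving out each array.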

Additional observations from a re-analysis of the deposited data

How the results depend on the processing

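Of 1124 values of single genes under the alternatives, 1084 kept their direction and their side of the threshold, 32 fell below it, 8 rose past it and none was reversed. The count of genes higher in hypertrophic than in normal ACMs, 5 in the report, was 2 with the background left in the values or at an adjusted p under 0.01, and 3 with an offset of 50, without the filter on background, or with only the 2 groups compared in the fit. It was 4 with median scaling, the authors' normalized values or the mean of the kept probes, and 2 to 6 when each array was left out. Prc1 and Birc5 were in every one of these counts. In embryonic CMs against normal ACMs the count of 28 became 14 of 15 measured genes when detection on at least 5 arrays was asked, since fewer genes could enter, and 21 to 28 when each array was left out; the lowest counts, 21 of 22 measured genes, came without either embryonic array. In embryonic CMs against hypertrophic ACMs it likewise became 14 of 15, and 21 to 28. Under the other alternatives these counts were 26 to 29 and 27 to 29. The 6 genes detected on all normal ACM arrays became 3 at a detection p under 0.01. Counts over all genes moved by more than 1.5 times in hypertrophic against normal ACMs under several alternatives. From 376 higher and 179 lower they fell to 176 and 49 without hypertrophic ACM array 2, 190 and 49 without hypertrophic ACM array 3, and 138 and 23 at an adjusted p under 0.01. With median scaling only the lower genes moved that far, to 80, while the higher genes stood at 346. The lower genes also fell to 83 to 115 without either embryonic array or normal ACM array 1 or 3, and to 109 with 2 groups in the fit. In embryonic CMs, 2573 higher and 2226 lower genes against normal ACMs and 2332 and 1935 against hypertrophic ACMs became 4561 and 1117, and 4333 and 1025, with median scaling, without embryonic array 1 the higher genes fell to 1707 and 1456 and the lower ones to 1588 and 1280, and without embryonic array 2 the higher genes against hypertrophic ACMs fell to 1440. Equal replicate numbers were not shown to pair the arrays, since correlations of their deviations ran from -0.10 to 0.13, and with the replicate number as a block the counts were 27, 6 and 28, with Anln added in hypertrophic ACMs. The share of windows of these genes with a CHR was 64.9% on the gene strand alone, against 11.6% of all windows, and that with a CCAAT box 56.8%, against 21.1%. Signal over background limits the adult values: most lie near the lowest signal that counts as detected, and their fold changes are compressed by the offset.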
